A study of Homo sapiens and Mus musculus with 24 samples.

Results

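The RNA of PIK3CA knock-in (KI) MCF10A cells was set against that of parental MCF10A cells while both were exposed to BYL719, so that the line differences present under PI3K alpha inhibition could be read. The libraries were chosen by their labels: 3 KI BYL719 and 3 parental BYL719 libraries, 6 of the 24 libraries in the series. MCF10A is a human breast epithelial line that does not form tumours. The KI line carries PIK3CA H1047R on 1 of its alleles, the parental line is wild type for PIK3CA, and the isogenic pair was bought from Horizon. BYL719 (alpelisib), an inhibitor of the PI3K alpha catalytic subunit, was given at 1 uM for 4 h. The same lines in the solvent DMSO for 4 h, 3 KI and 3 parental libraries, were used for the DMSO values given beside the BYL719 values. The labels do not say whether the KI line is 1 clone or whether the 3 libraries of a group were separate cultures. Clone and genotype therefore cannot be told apart, and the p-values measure only the spread between these libraries. In bulk RNA, fewer cells of a type and less RNA per cell also cannot be told apart.

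PI3K alpha makes the membrane lipid PIP3 downstream of growth factor receptors, and PIP3 recruits and activates the kinase AKT. Active AKT phosphorylates FOXO transcription factors and holds them outside the nucleus. When PI3K is inhibited, FOXO proteins return to the nucleus and raise genes such as IRS2, ERBB3 and PIK3IP1, several of which feed back on the pathway. H1047R is a frequent activating change of PIK3CA in breast cancer, and alpelisib is used as a medicine against PIK3CA-mutant breast cancer.

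Depth was 120177015 to 162755457 estimated pairs in each of the 12 MCF10A libraries, and 21079 genes passed the filter on low counts. Levels are given as CPM, counts relative to the scaled library size, in the order of replicates 1, 2 and 3. The first principal component held 57.3% of the variance over 11100 genes and separated the lines, with KI BYL719 libraries at 10.43, 8.50 and 8.94 and parental BYL719 libraries at -18.12, -18.30 and -19.39. KI DMSO replicate 2 stood apart from its group, at -22.01 on the second component (27.3% of the variance) against -2.85 and -5.14. KI BYL719 replicate 3 held 6 protein-coding genes at 1 CPM or more and at least 5 times the other KI BYL719 libraries (COL1A2, COL3A1, GREM1, SPARC, MMP1 and AP000295.1), while the other 11 libraries each held 0 to 2 such genes. Values without either library are given where they matter. Transcript of EPCAM, an epithelial surface protein, was present in both lines under BYL719. Its levels were 77.9, 74.3 and 70.5 CPM in KI and 95.3, 93.1 and 91.5 CPM in parental cells, lower in every KI library. Of 23 epithelial junction genes and regulators tested, 20 were called lower in KI cells and none higher. The leukocyte marker PTPRC stayed at 0.076 CPM or less in the 6 libraries, and the muscle regulator MYOD1 was at 0.

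PIK3CA itself (chromosome 3, 179148114 to 179240093, plus strand, GRCh38) checks only the amount of transcript here, because a base change does not alter a gene count. Its level was 73.1, 70.1 and 69.8 CPM in KI BYL719 and 66.1, 67.4 and 71.3 CPM in parental BYL719 libraries, with overlapping groups. The means were 71.0 ± 1.83 and 68.3 ± 2.70 CPM (SD, n = 3 each), a log2 difference of 0.06 ± 0.08 (SE) with an edgeR adjusted p of 0.691. In DMSO the KI line had less PIK3CA transcript, with a log2 difference of -0.50 (adjusted p = 0.000376).

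The KI and parental lines differed widely under BYL719. Of 21079 genes, 4709 passed an adjusted p of 0.05 (22.3%), 2411 of them higher in KI cells (11.4%) and 2298 lower (10.9%). A change of at least 1.5-fold was present in 940 of the higher and 1163 of the lower genes, and at least 4-fold in 154 and 276. The median log2 difference over all tested genes was 0.013. Without KI DMSO replicate 2, 7442 genes were called, 3738 higher and 3704 lower in KI cells. That library is outside this contrast and enters the fit through the shared estimate of spread, the scaling and the filter on low counts. Counts of list members given below are to be read beside the shares over all genes. Those given without KI DMSO replicate 2 are to be read beside the larger total of 7442.

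In DMSO the same contrast called 7213 genes (34.2%), 3579 higher in KI cells (17.0%) and 3634 lower (17.2%). The order of the 2 media turned round when the 6 libraries of each were fitted alone, with 6745 calls under BYL719 and 5050 in DMSO. The BYL719 and DMSO contrasts share no library. Of the genes called under BYL719, 3489 were also called in DMSO in the same direction, which is 74.1% of the BYL719 calls and 48.4% of the DMSO calls. A further 76 were called in opposite directions, 1144 under BYL719 only and 3648 in DMSO only. A call in one medium and not in the other does not show a difference, so the difference itself was tested as an interaction, the line difference under BYL719 minus that in DMSO. That test called 606 genes (2.87%), 438 positive (2.08%) and 168 negative (0.797%). DESeq2 called 1429, with 813 positive and 616 negative, and effective-length offsets left 272, with 229 positive and 43 negative. The edgeR count was 1874 without KI DMSO replicate 2, and it was 239 to 346 without KI BYL719 replicate 2 or 3 or any 1 of the 6 parental libraries.

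**Figure D1:**
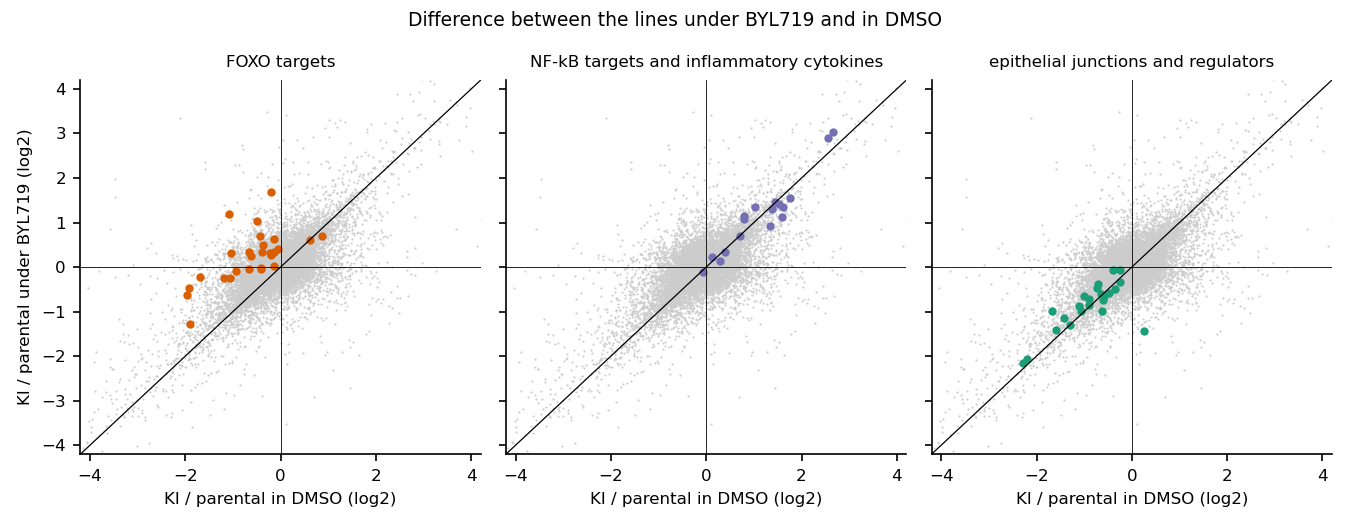
Each grey point is 1 tested gene, with the log2 KI to parental ratio under BYL719 on the vertical axis and in DMSO on the horizontal axis, both shown from about -4 to 4; coloured points are the FOXO targets, NF-kB genes and epithelial junction genes, and the diagonal marks equal differences. Most FOXO targets lie above the diagonal, 20 of 27 being called in the interaction test, while the 17 NF-kB genes lie close to it and edgeR called none of them. The lists were chosen with earlier results of these data known.

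The 12 protein-coding genes with the largest increase in KI cells, out of those with a mean of at least 5 CPM, are given by function, secreted proteins first. DCN (chromosome 12, 91140484 to 91183123, minus strand) encodes decorin, a collagen-binding proteoglycan that sequesters TGF-beta. DCN was at 125, 148 and 149 CPM in KI and 9.94, 10.6 and 10.7 CPM in parental cells under BYL719. All 3 KI libraries lay far above the parental ones, at 141 ± 13.7 against 10.4 ± 0.415 CPM (SD, n = 3 each), a log2 fold change of 3.75 ± 0.10 with an adjusted p of 1.79e-10. IGFBP3 (chromosome 7, 45912245 to 45921874, minus strand), which binds insulin-like growth factors outside the cell, was at 97.5, 85.1 and 89.7 CPM in KI and 9.32, 10.4 and 9.87 CPM in parental cells. The groups did not overlap and the log2 fold change was 3.20 ± 0.07 (adjusted p = 4.2e-11).

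The complement components CFB and C1S, the interferon-induced IFI44L and the calgranulin S100A8 belonged to the same leaders. CFB (chromosome 6, 31945650 to 31952084, plus strand), a serine protease of the alternative complement pathway, was at 21.2, 21.6 and 23.1 CPM in KI and 1.63, 1.80 and 1.86 CPM in parental cells (log2 fold change 3.64 ± 0.08, adjusted p = 4.2e-11). IFI44L was at 11.2, 11.1 and 11.4 CPM in KI and 0.586, 0.832 and 0.658 CPM in parental cells (4.01 ± 0.11, adjusted p = 2.52e-10). In each of these genes the lowest KI library exceeded the highest parental library several times over. C1S had a log2 fold change of 3.35 ± 0.10 and S100A8 one of 2.87 ± 0.16 (adjusted p = 5.03e-08).

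Among the remaining leaders were a transcription factor, a phosphodiesterase and a cell adhesion molecule. ZEB1 (chromosome 10, 31318495 to 31529814, plus strand), a repressor of E-cadherin and of other epithelial genes, was at 14, 13.5 and 14.4 CPM in KI and 1.27, 1.49 and 1.57 CPM in parental cells. Its groups were widely apart, with a log2 fold change of 3.27 ± 0.11 (adjusted p = 5.21e-10). PDE3B, which hydrolyses cyclic AMP and is activated by AKT in fat cells, had the same log2 fold change of 3.27 ± 0.15 (adjusted p = 1.01e-08). CADM3, an immunoglobulin-type adhesion molecule known from neurons, was almost absent from parental cells: its counts were 1452, 1626 and 1659 in KI and 2, 2 and 4 in parental libraries, a ratio of 560 with an exact 95% counting interval of 284 to 1299. RTN1 (3.22 ± 0.09), the interleukin 7 receptor IL7R (3.21 ± 0.10) and the hypoxia-regulated carbonic anhydrase CA9 (2.80 ± 0.15) completed the 12.

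The 12 leading genes lower in KI cells included a pair that was nearly silent there. RYR1 (chromosome 19, 38433699 to 38587564, plus strand), the calcium release channel of muscle, had counts of 3, 2 and 0 in KI and 1733, 1997 and 1761 in parental cells under BYL719. The parental to KI ratio of the summed, depth-scaled counts was 1161, with an exact 95% counting interval of 497 to 3576. GPAT2, a mitochondrial acyltransferase of glycerolipid synthesis known from testis, had counts of 1, 9 and 5 in KI and 3464, 3823 and 3702 in parental cells, a ratio of 774 (469 to 1384). These intervals cover counting error only. EEF1A2, the elongation factor isoform of muscle and neurons, was at 1.5, 1.72 and 1.46 CPM in KI and 31.8, 27.6 and 28.6 CPM in parental cells, and its log2 fold change was -4.23 ± 0.12 (adjusted p = 2.6e-10).

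IGFBP7, a secreted binding protein, was at 1.73, 1.90 and 2.11 CPM in KI and 26.4, 26.3 and 25.4 CPM in parental cells, a log2 fold change of -3.76 ± 0.09 (adjusted p = 7.44e-11). It moved opposite to IGFBP3. The matrix metalloproteinase MMP10 (-3.73 ± 0.12) and the large proteoglycan VCAN (-2.85 ± 0.10) fell as well. CLDN4 (chromosome 7, 73799542 to 73832693, plus strand), a tight junction claudin, was at 9.16, 6.91 and 7.81 CPM in KI and 37.5, 35.5 and 33.7 CPM in parental cells (-2.16 ± 0.10, adjusted p = 1.63e-08). SEMA4A, PPFIBP2, RAB3B, PODXL2 and the calcium-activated chloride channel ANO1 had log2 fold changes from -3.15 to -2.08. Of these 24 leaders only IL7R was called in the interaction test; RYR1 had an interaction of -2.12 with an adjusted p of 0.0994.

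**Figure D2:**
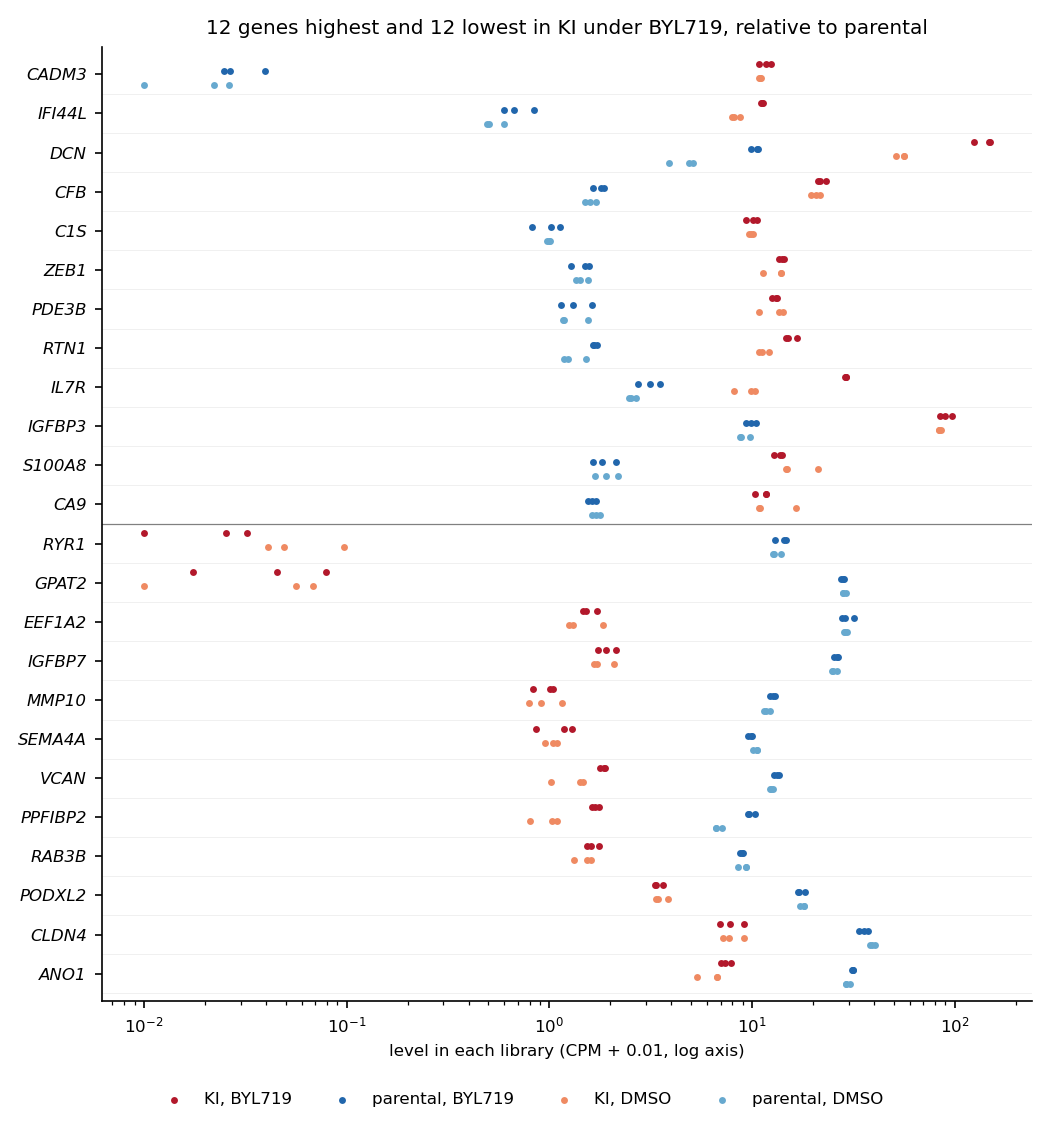
CPM plus 0.01 on a log axis in each library for the 12 genes most raised and the 12 most lowered in KI cells under BYL719, 1 point per library, with the DMSO libraries below in paler colours. The KI BYL719 libraries lie on one side of the parental BYL719 libraries in every gene, which the choice of these genes required, and the DMSO libraries keep the same order.

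Epithelial junction genes and their regulators were lower in KI cells. Of 23 members tested, 20 fell and none rose under BYL719, with a median log2 difference of -0.75, and 22 fell in DMSO with a median of -0.73. E-cadherin (CDH1), the adhesion molecule of adherens junctions, was at 142, 140 and 144 CPM in KI and 257, 263 and 260 CPM in parental cells (-0.88, adjusted p = 2.39e-06). OVOL1, a repressor that holds cells in the epithelial state, was at 1.40, 1.47 and 1.17 CPM in KI and 5.90, 5.74 and 5.42 CPM in parental cells (-2.08 ± 0.11, adjusted p = 2.75e-08). Neither gene had overlapping groups. GRHL2, OVOL2, ESRP1 and ESRP2, which also maintain epithelial transcription or splicing, fell by 1.42, 1.15, 0.71 and 0.57 on the log2 scale. CLDN3 was detected at under 0.1 CPM, and its log2 difference of -1.44 lost its call, with adjusted p of 0.0633 to 0.154, when KI BYL719 replicate 1 or 3 or parental BYL719 replicate 1 or 2 was left out; it was -2.12 without KI BYL719 replicate 2. TJP1, which anchors tight junctions to actin, had -0.06 and was not called.

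Mesenchymal regulators were mostly higher. Of 15 tested, 10 rose and 2 fell, or 4 fell without KI DMSO replicate 2, with a median of 0.67. The intermediate filament VIM had a log2 fold change of 1.42 and N-cadherin (CDH2) one of 1.41. ZEB2, the paralogue of ZEB1, was at 27, 31.8 and 32.3 CPM in KI and 8.18, 8 and 9.02 CPM in parental cells, with no overlap (1.85). SNAI1 and TWIST1, further repressors of epithelial genes, each rose by 0.67, while SNAI2 had -0.11 and was not called. The members that fell were the matrix protease MMP2 (-2.46) and AXL (-0.33), a receptor kinase often counted as mesenchymal.

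Mammary lineage markers did not move as 1 block. Among 20 basal markers 2 rose and 11 fell. KRT14, a basal keratin whose counts may be shared with pseudogenes, was at 198, 218 and 220 CPM in KI and 51, 49.6 and 48.9 CPM in parental cells (2.09, adjusted p = 1.76e-09), and the surface peptidase MME had a log2 fold change of 2.60. TP63, the transcription factor of basal epithelium, went the other way at 57.7, 59.9 and 61.3 CPM in KI and 104, 105 and 107 CPM in parental cells (-0.82). Among 16 luminal markers 4 rose and 6 fell. ELF3 and EHF, epithelial ETS factors, fell by 1.99 and 1.69, ALDH1A3 fell by 1.12, and the mucin MUC1 rose by 1.35. Cornified envelope and S100 genes had 4 rises and 12 falls among 24, with S100A9 (1.68) and S100A8 high and IVL (-1.28), KRT13 (-1.47) and KRT80 (-1.35) low.

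**Figure D3:**
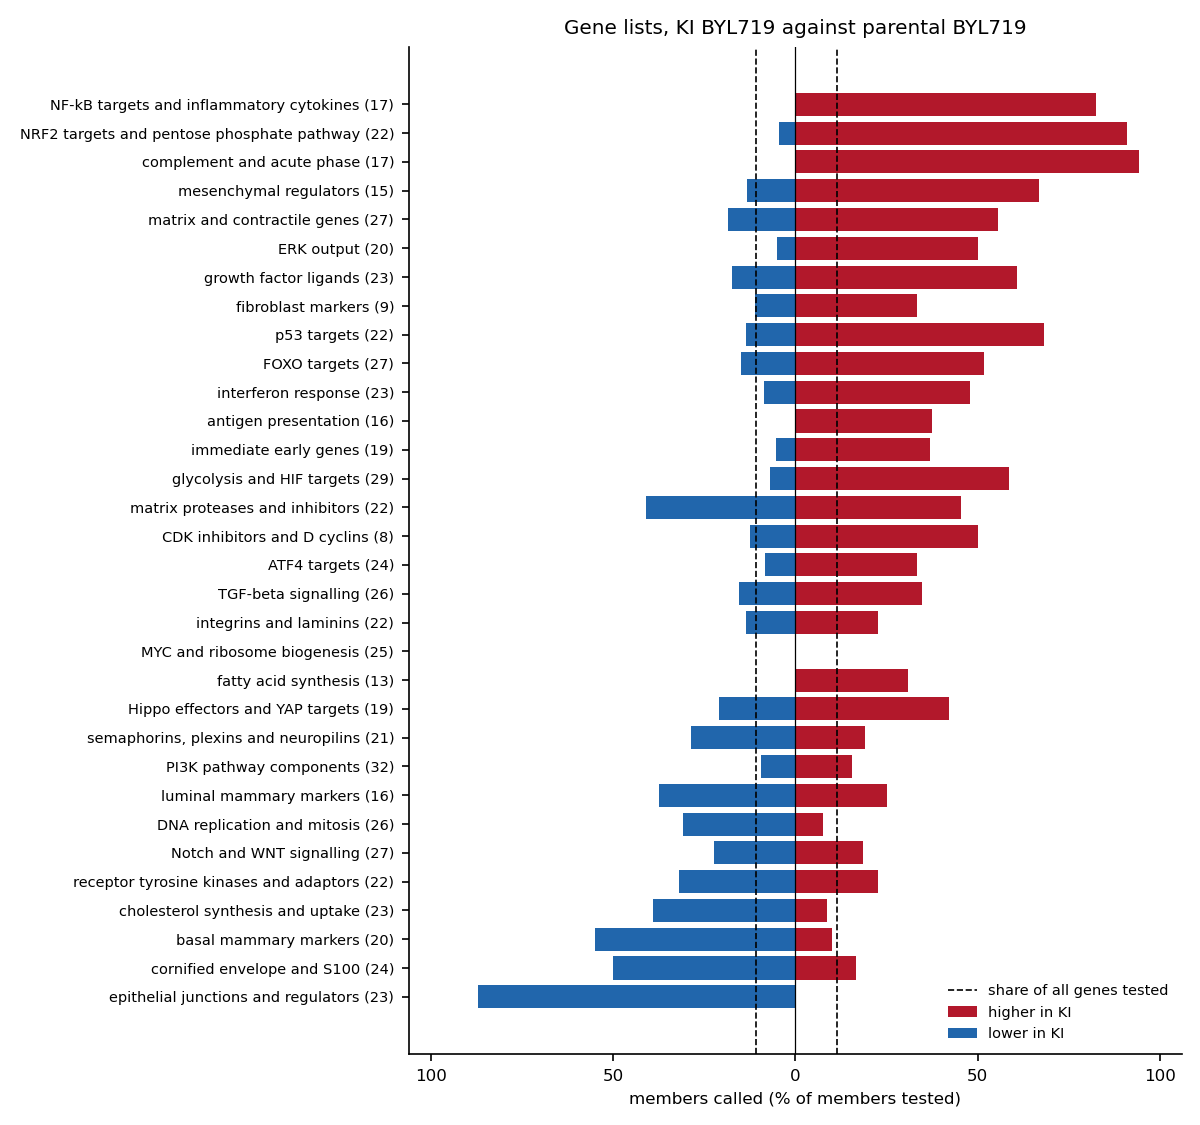
Share of tested members (number in brackets, % on the axis) called higher (right, red) and lower (left, blue) in KI than in parental cells under BYL719 for each gene list, with dashed lines at the shares over all genes, 11.4% and 10.9%. NRF2, complement and NF-kB genes were nearly all higher, epithelial junction genes were nearly all lower, and no MYC and ribosome biogenesis gene was called.

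NF-kB targets and inflammatory cytokines were higher in KI cells. Of 23 in the list 17 could be tested, and 14 rose with none falling, with a median of 1.14; in DMSO 14 rose too, with a median of 1.33. In the interaction edgeR called none of the 17, where 3 positive and 1 negative passed an unadjusted p of 0.05 and DESeq2 called 2; without KI DMSO replicate 2 edgeR called 3. CXCL8, the neutrophil-attracting chemokine interleukin 8, was at 4.08, 3.19 and 5.37 CPM in KI and 0.503, 0.596 and 0.451 CPM in parental cells (3.02 ± 0.20, adjusted p = 3.2e-07). CXCL1, a chemokine of the same receptor, was at 2.22, 0.878 and 2.37 CPM in KI and 0.322, 0.221 and 0.200 CPM in parental cells (2.89 ± 0.40, adjusted p = 0.00016). The KI libraries were above all parental libraries in both genes although KI BYL719 replicate 2 held less CXCL1 than the other KI libraries. The adhesion receptor ICAM1 was at 7.41, 7.07 and 7.08 CPM in KI and 3.33, 3.27 and 3.20 CPM in parental cells (1.14, adjusted p = 4.02e-08). NFKBIA, the inhibitor of NF-kB, was not called, at 96.8, 101 and 91.4 CPM in KI and 82.3, 83.4 and 82.2 CPM in parental cells (0.22, adjusted p = 0.111).

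The windows below, from RefSeq promoters on GRCh38.p14, show the NF-kB motif GGAANTTCC in capitals upstream of 4 of the genes that rose and of NFKBIA, which was not called; each is read 5′ to 3′ on the strand of its gene. They lie at chr4:73740443-73740521 (CXCL8, plus strand), chr4:73869280-73869358 (CXCL1, plus strand), chr4:74099229-74099307 (CXCL2, minus strand), chr19:10270899-10270977 (ICAM1, plus strand) and chr14:35404787-35404865 (NFKBIA, minus strand).
CXCL8: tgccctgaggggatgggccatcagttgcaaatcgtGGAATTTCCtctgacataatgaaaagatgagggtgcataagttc
CXCL1: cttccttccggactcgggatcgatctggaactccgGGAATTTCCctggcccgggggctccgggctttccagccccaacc
CXCL2: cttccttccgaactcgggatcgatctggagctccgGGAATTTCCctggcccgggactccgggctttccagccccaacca
ICAM1: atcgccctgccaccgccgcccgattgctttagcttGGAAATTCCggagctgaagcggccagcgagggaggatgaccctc
NFKBIA: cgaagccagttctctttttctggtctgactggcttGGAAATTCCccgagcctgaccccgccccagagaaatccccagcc

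The motif starts 91, 78, 77, 186 and 81 bases before the start of CXCL8, CXCL1, CXCL2, ICAM1 and NFKBIA. Within 250 upstream bases, and with the motif the same on both strands, 8 of the 24 RefSeq promoters of 20 list genes held it, against 290 of all 35116 promoters (0.826%). The promoters not shown above were those of CXCL3, CXCL5 and CXCL6. Because the list was chosen as NF-kB targets and cytokines, this share is no test of NF-kB in these cells. CXCL2, another ligand of the CXCL8 receptors, was at 1.72, 1.25 and 1.31 CPM in KI and 0.759, 0.766 and 0.724 CPM in parental cells (0.93, adjusted p = 0.00193). The motif is present in NFKBIA as well as in the genes that rose, and its use in these cells was not measured.

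Complement and acute phase genes showed a similar count, with 16 of 17 higher and none lower and a median of 0.81. C3, the central component, rose by 2.58, its regulator CFI rose by 2.09, and C1R rose by 1.70. SAA2 had a log2 fold change of 3.57, but SAA1 and SAA2 are near-identical and their split is uncertain. Interferon response genes moved both ways, 11 up and 2 down among 23, or 4 down without KI DMSO replicate 2. IFI44 (2.92), IFI6 (1.17) and IFIT3 (1.02) were higher, while the antiviral effectors MX1 and OAS1 fell by 0.73 and 0.48. Antigen presentation genes had 6 rises and no fall among 16 (37.5% called, against 22.3% of all genes). Without KI DMSO replicate 2 there were 10 rises. B2M, the light chain of HLA class I, was at 486, 488 and 502 CPM in KI and 348, 359 and 343 CPM in parental cells (0.49, adjusted p = 0.000318).

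NRF2 targets and pentose phosphate enzymes were higher in KI cells in both media. Under BYL719 20 of 22 rose and 1 fell with a median of 0.85, and in DMSO 20 rose and 1 fell with a median of 0.81. ABCC2, an efflux pump for conjugated drugs, was at 37.1, 40.0 and 40.0 CPM in KI and 6.84, 6.97 and 7.23 CPM in parental cells (2.48 ± 0.09, adjusted p = 1.3e-09). HMOX1, which degrades haem, was at 24.3, 22.5 and 25.1 CPM in KI and 6.16, 6.04 and 6.01 CPM in parental cells (1.98 ± 0.06, adjusted p = 5.21e-10). The cystine transporter SLC7A11 was at 252, 203 and 236 CPM in KI and 77.4, 74.5 and 76.7 CPM in parental cells (1.59 ± 0.09, adjusted p = 5.32e-08). No groups overlapped in these 3 genes. The rate-limiting glutathione enzyme GCLC (0.91, with an interaction of 0.37) and the pentose phosphate enzyme PGD (0.43) rose, PIR fell by 0.43 and TKT (0.10) was not called.

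Glycolysis and HIF targets had 17 rises and 2 falls among 29, with a median of 0.21. Beside CA9, the brain-type aldolase ALDOC was at 35.4, 37.1 and 36.2 CPM in KI and 20.5, 19.3 and 18.9 CPM in parental cells (0.89), and the enolase ENO2 rose by 0.80. The main glycolytic enzymes rose less, GAPDH by 0.40 and LDHA by 0.19. The glucose transporter SLC2A1 fell by 0.21, a call lost with effective-length offsets (adjusted p = 0.134). ATF4 targets, genes of the amino acid stress response, had 8 rises and 2 falls among 24, but 4 rises without parental BYL719 replicate 1 and 5 without KI BYL719 replicate 1 or parental BYL719 replicate 2 or 3. SLC7A5 and SLC3A2, the 2 chains of a leucine transporter, were the members that fell, by 0.61 and 0.34, while 5 members fell without KI DMSO replicate 2.

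Sterol genes leaned slightly down in KI cells under BYL719. Of 23 cholesterol genes 9 fell and 2 rose with a median of -0.11, whereas in DMSO 6 rose and 2 fell. The number that fell was 14 without KI DMSO replicate 2 and 5 without parental BYL719 replicate 2. HMGCS1, an early enzyme of the mevalonate pathway, was at 119, 112 and 110 CPM in KI and 138, 137 and 135 CPM in parental cells under BYL719 (-0.27, adjusted p = 0.00243). In DMSO it was at 302, 262 and 290 CPM in KI and 251, 257 and 248 CPM in parental cells, and the interaction was -0.44 (adjusted p = 0.0081, or 0.136 with effective-length offsets). SQLE and MVK, further enzymes of the pathway, fell by 0.33 and 0.38. Fatty acid synthesis genes had 4 rises among 13 (30.8% called, against 22.3% of all genes), led by the desaturase FADS1 (0.51). FASN (0.04) was not called.

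None of 25 MYC and ribosome biogenesis genes was called under BYL719, with a median of 0.08, a lowest value of -0.17 and a highest of 0.30, although 19 rose in DMSO with a median of 0.23. At an unadjusted p of 0.05 edgeR gave 3 of them, all higher in KI cells, and DESeq2 called 0. The list had 4 rises and 2 falls under BYL719 without KI DMSO replicate 2, and likewise when the 6 BYL719 libraries were fitted alone. The interaction called NOP56, NOP2 and RRS1, nucleolar proteins of ribosome assembly, at -0.32, -0.42 and -0.54. Their number changed with single libraries: none of the list was called without KI BYL719 replicate 2 or 3, parental BYL719 replicate 1 or 2 or parental DMSO replicate 2 or 3, and 1 was without KI DMSO replicate 3 or parental BYL719 replicate 3. Without KI DMSO replicate 1 or 2 the number called negative was 7 or 14. Of 26 replication and mitosis genes 2 rose and 8 fell (38.5% called), or 13 fell without KI DMSO replicate 2 and 5 with effective-length offsets. The rises were TYMS (0.31), which makes thymidylate, and TOP2A (0.14), a DNA topoisomerase; 1 gene rose without any 1 library other than KI DMSO replicates 1 and 2. The members that fell were replication licensing and G1/S genes such as MCM6 (-0.31), MCM3 (-0.23) and CCNE1 (-0.33), and MKI67 (0.04) was not called.

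Of 8 D cyclins and inhibitors of cyclin-dependent kinases tested, 4 rose and 1 fell with a median of 0.12. The p53 targets leaned up. CDKN1C, encoding p57, was at 45, 50.5 and 46.3 CPM in KI and 28.6, 28.4 and 28.3 CPM in parental cells under BYL719 (0.73). In DMSO CDKN1C was at 90.1, 117 and 83.8 CPM in KI and 28.0, 28.6 and 32.5 CPM in parental cells (1.71), and the interaction was -0.97 (adjusted p = 0.00438). CDKN1A, encoding p21, was at 273, 295 and 291 CPM in KI and 207, 205 and 202 CPM in parental cells (0.48), with an interaction of -0.42 (adjusted p = 0.00683). In both genes the KI libraries stayed above the parental ones under BYL719. CCND1 rose by 0.60 and CCND2 fell by 2.96. Among 22 p53 targets 15 rose and 3 fell with a median of 0.39, including PLK2 (0.88), GDF15 (0.69) and MDM2 (0.57), while PERP fell by 0.60.

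Components of the PI3K pathway itself moved little in number under BYL719. Of 32 tested 5 rose and 3 fell, near the share over all genes, with a median of 0.009 that was negative under other scalings (-0.001 and -0.007). The number that rose was 3 without KI BYL719 replicate 3 or any parental BYL719 library, and without KI DMSO replicate 2 there were 8 rises and 10 falls. In DMSO 2 members rose and 14 fell, with a median of -0.14. The interaction was called positive for 4 members, or for 1 to 9 when single libraries were left out. FOXO1 was at 62.5, 66.6 and 62.9 CPM in KI and 29.3, 29.9 and 30.1 CPM in parental cells (1.10 ± 0.08, adjusted p = 7.53e-07). FOXO3 was at 128, 126 and 123 CPM in KI and 98.4, 99.2 and 99.9 CPM in parental cells (0.34, adjusted p = 0.00476). PIK3C2B, a class II PI3K, was at 17.4, 17.5 and 18.0 CPM in KI and 32.5, 31.4 and 30.9 CPM in parental cells (-0.84). None of these 3 genes had overlapping groups. The lipid phosphatase INPP4B fell by 0.54, and AKT1 (-0.06) and MTOR (0.12) were not called.

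Growth factor ligands and their receptors were listed apart, and the lists were not compared by a test. Of 23 ligands and binding proteins 14 rose and 4 fell with a median of 0.46, and of 22 receptor tyrosine kinases and adaptors 5 rose and 7 fell with a median of -0.06. In DMSO 15 ligands and binding proteins rose and 3 fell, while 4 receptors and adaptors rose and 13 fell, with a median of -0.53. The interaction was called positive for 5 of the 22 receptors and adaptors. Without KI DMSO replicate 2 it was called positive for 8 and negative for 1. FGF2 was at 10.5, 9.93 and 11.0 CPM in KI and 2.18, 2.06 and 2.38 CPM in parental cells (2.25 ± 0.08, adjusted p = 7.48e-10). FGFR2, one of its receptors, was at 5.71, 5.99 and 5.79 CPM in KI and 17.8, 18.6 and 17.7 CPM in parental cells (-1.63 ± 0.07, adjusted p = 5.92e-09). The EGF receptor ligand AREG was at 111, 72.2 and 78.2 CPM in KI and 33.6, 30.4 and 27.4 CPM in parental cells (1.52, adjusted p = 2.59e-05). FGF2 and AREG were higher and FGFR2 lower in every KI library. FGF1, PDGFB and NRG1 fell by 1.28, 1.34 and 0.57, and the receptors ERBB2 and DDR1 fell by 0.29 and 0.45. DDR2 rose by 0.61, but not with effective-length offsets (0.12, adjusted p = 0.808).

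Of 20 genes that report ERK signalling 10 rose and 1 fell, with a median of 0.49; 6 rose when the 6 BYL719 libraries were fitted alone. SPRY4, an ERK-induced feedback inhibitor, was at 27.8, 13.3 and 15 CPM in KI and 8.68, 6.95 and 5.73 CPM in parental cells (1.39 ± 0.26, adjusted p = 0.00174). DUSP4, an ERK phosphatase, was at 83.5, 47.8 and 54.2 CPM in KI and 30.7, 26.2 and 23.5 CPM in parental cells (1.21, adjusted p = 0.000328). KI BYL719 replicate 1 was the highest library in both, and the groups did not overlap. ETV4, the member that fell (-0.22), was not called without KI BYL719 replicate 2 or 3 or parental BYL719 replicate 1 or 2. Immediate early genes had 7 rises and 1 fall among 19, including FOS (1.04) and ATF3 (1.16). The number that fell was 0 without KI BYL719 replicate 3 or parental BYL719 replicate 1 or 2, 2 without KI BYL719 replicate 1 and 3 without KI DMSO replicate 2. CCN1, a matrix-associated signalling protein, was at 38.8, 37.3 and 38.8 CPM in KI and 21.0, 20.1 and 18.1 CPM in parental cells (0.96, adjusted p = 1.85e-07).

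Matrix and contractile genes divided into genes of opposite direction, 15 up and 5 down among 27 with a median of 0.54. Fibrillin 1 (FBN1) was at 22.6, 17.8 and 20.8 CPM in KI and 3.66, 4.00 and 4.13 CPM in parental cells (2.37), and the collagen crosslinker LOX rose by 1.71. The collagen VI chain COL6A2 was at 7.47, 8 and 9.28 CPM in KI and 24.4, 23.9 and 23.1 CPM in parental cells (-1.53). SPARC, a collagen-binding glycoprotein, was at 0.201, 0.168 and 1.84 CPM in KI and 3.08, 2.77 and 3.02 CPM in parental cells. Its log2 difference was -1.99 (adjusted p = 0.042), or -3.99 (adjusted p = 5.3e-07) without KI BYL719 replicate 3, the library in which it was high; leaving out any other single library gave adjusted p of 0.0606 to 0.0996. COL1A2 and COL3A1 were not called at 2.86 and 3.12, values that were -0.90 and -0.36 without that library.

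Matrix proteases also went both ways, 10 up and 9 down among 22. The gelatinase MMP9 was at 9.31, 8.66 and 10.6 CPM in KI and 33.3, 31.2 and 29.1 CPM in parental cells (-1.71). MMP1, an interstitial collagenase, was at 0.587, 0.435 and 3.20 CPM in KI and 4.26, 4.52 and 4.66 CPM in parental cells (-1.66, adjusted p = 0.0417), or -3.13 (adjusted p = 6.63e-08) without KI BYL719 replicate 3. MMP2 was at 0.305, 0.359 and 0.919 CPM in KI and 3.19, 2.81 and 2.76 CPM in parental cells (-2.46), or -3.13 (adjusted p = 7.91e-07) without the same library. In these genes too that replicate was the highest KI library, still below the parental ones.

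**Figure D4:**
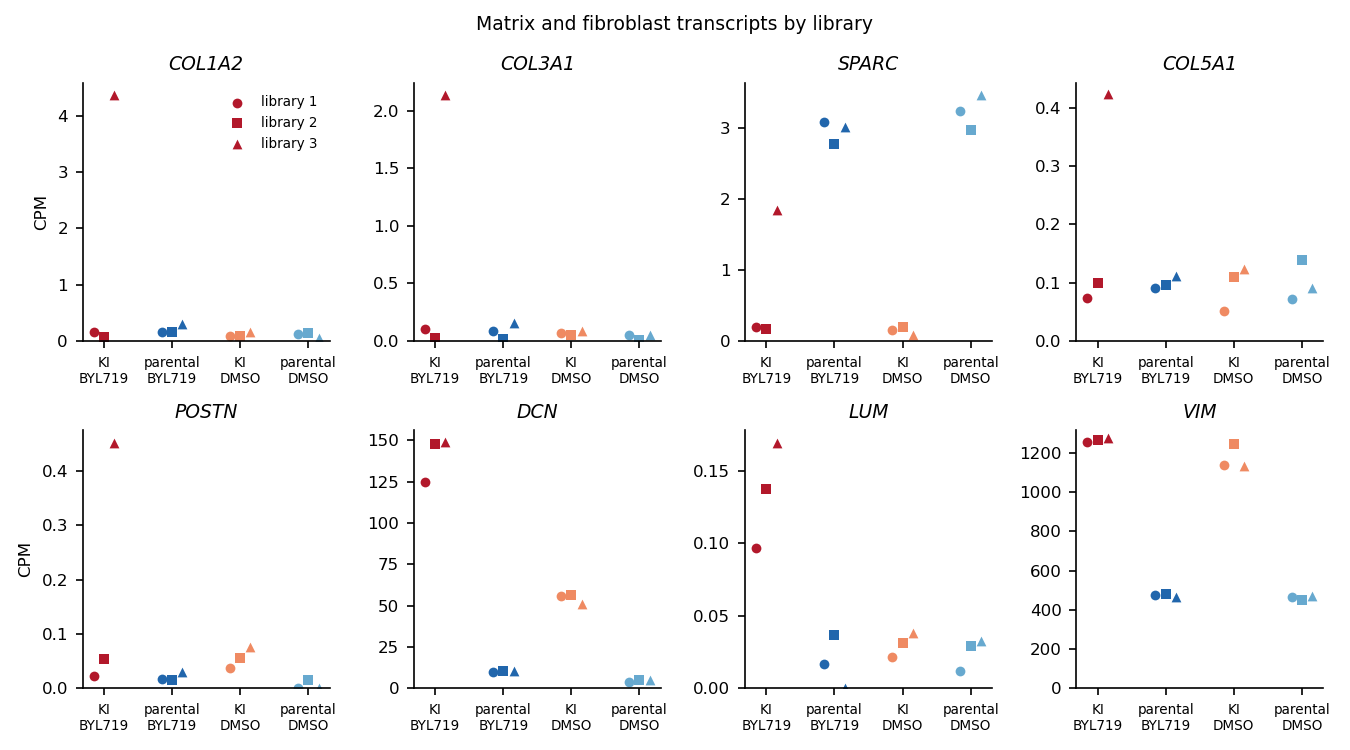
CPM on linear axes in each library of the 4 MCF10A groups for 8 matrix and fibroblast genes, with circles, squares and triangles for replicates 1, 2 and 3. KI BYL719 replicate 3 lies above the other KI BYL719 libraries for COL1A2, COL3A1, SPARC, COL5A1 and POSTN, while DCN and VIM are high in all 3 KI BYL719 libraries.

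Markers of other cell types were set beside these matrix genes. The summed fibroblast list was at 187.1 to 225.8 CPM in KI and 66.24 to 70.13 CPM in parental BYL719 libraries, most of the KI sum being DCN; 5 of its 10 members were under 1 CPM in all 12 MCF10A libraries and none was at 0 in all of them. Among its 9 tested members 3 rose and 1 fell with a median of 0.44. Without KI BYL719 replicate 3 the median was -0.36 and 2 fell. The number that rose was 6 without KI BYL719 replicate 1 or 2, and without KI DMSO replicate 2, where 10 members were tested, the median was 1.64. THY1, a fibroblast surface marker, was at 0.096 CPM or less in all 6 libraries. The summed haematopoietic list was at 30.6 to 32.42 CPM in KI and 31.25 to 32.01 CPM in parental libraries, and the endothelial list at 3.202 to 3.583 CPM in KI and 2.886 to 3.126 CPM in parental libraries, with CDH5 at 0.008 CPM or less. Of the tested markers of these lists, CD68 rose and CSF1R fell among 5 haematopoietic ones, while TEK and ESAM rose among 7 endothelial ones (TEK not without any 1 KI BYL719 library or parental BYL719 replicate 1 or 3, ESAM not without parental BYL719 replicate 2). LPL and LIPE fell among 5 adipocyte ones, NCAM1 fell among 7 neural ones, and edgeR and DESeq2 called none of 4 muscle ones, 1 of which passed an unadjusted p of 0.05. What part cells other than MCF10A have in the matrix values of KI BYL719 replicate 3 was not tested.

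Signalling lists for tissue form moved in both directions, to be read beside 11.4% of all genes higher and 10.9% lower in KI cells. Among 26 TGF-beta genes 9 rose and 4 fell, or 7 fell without KI DMSO replicate 2 and 1 with effective-length offsets: the ligand TGFB2 rose by 1.66, the target ID1 by 1.12 and the co-receptor TGFBR3 by 0.99, while the inhibitory SMAD6 and SMAD7 fell by 0.59 and 0.42, SMAD6 without a call under those offsets (adjusted p = 0.0547). Among 19 Hippo effectors and YAP targets 8 rose and 4 fell, or 5 rose without KI BYL719 replicate 1 or parental BYL719 replicate 2 or 3. Notch and WNT genes had 5 rises and 6 falls among 27, or 3 rises without parental BYL719 replicate 1 and 9 falls without KI DMSO replicate 2. WNT5A rose by 1.06, whereas WNT7B was at 6.55, 5.06 and 5.44 CPM in KI and 17.6, 18.4 and 17.8 CPM in parental cells (-1.66). Of 21 semaphorins and receptors 4 rose and 6 fell, with NRP1 (0.93) up and SEMA3B (-1.92) and SEMA4A down. Of 22 integrins and laminins 5 rose and 3 fell (36.4% called, against 22.3% of all genes), including ITGB3 (1.5), ITGA5 (0.92) and ITGB8 (-0.99). That list had 8 rises and 6 falls without KI DMSO replicate 2, 5 falls without KI BYL719 replicate 1 and 1 fall without KI BYL719 replicate 2.

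FOXO targets differed between the media. Under BYL719 14 of 27 tested members were higher in KI cells and 4 were lower, with a median of 0.31, whereas in DMSO 2 were higher and 20 lower, with a median of -0.43. The interaction was positive and called for 20 of the 27, against 2.08% of all genes, and negative and called for none. Its median was 0.81 against 0.014 over all genes. Leaving out single libraries gave 15 to 23 positive calls, the lowest without KI BYL719 replicate 3 and the highest without KI DMSO replicate 2. The list was chosen with earlier results of these data known, so these counts are no independent test of it. The number that fell under BYL719 was 2 without KI BYL719 replicate 1 or parental BYL719 replicate 2 or 3.

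PIK3IP1 and IRS2, feedback regulators within this list, lay below the parental level in DMSO and above it under BYL719. PIK3IP1, a membrane protein that restrains PI3K, was at 8.35, 9.03 and 9.55 CPM in KI and 3.96, 3.58 and 4.19 CPM in parental cells under BYL719 (1.2 ± 0.13, adjusted p = 2.78e-05). In DMSO it was at 1.34, 0.928 and 0.877 CPM in KI and 2.02, 2.20 and 2.48 CPM in parental cells (-1.08), and the interaction was 2.28 (adjusted p = 0.000104). IRS2, the adaptor of the insulin receptor, was at 65.4, 64.9 and 52.7 CPM in KI and 37.8, 37.5 and 38.2 CPM in parental cells under BYL719 (0.69 ± 0.07, adjusted p = 1.85e-05). In DMSO IRS2 was at 20.6, 20.7 and 21.0 CPM in KI and 29.4, 26.4 and 28.0 CPM in parental cells, and the interaction was 1.12 (adjusted p = 0.000159). For both genes the groups did not overlap in either medium, and their order was opposite.

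Other FOXO targets remained lower in KI cells under BYL719, with a smaller gap. The receptor ERBB3 was at 68.5, 76.8 and 78.7 CPM in KI and 115, 115 and 116 CPM in parental cells under BYL719 (-0.62 ± 0.08, adjusted p = 6.83e-05). In DMSO ERBB3 was at 23.3, 18.9 and 23.1 CPM in KI and 81.1, 85.0 and 89.2 CPM in parental cells (-1.97), and the interaction was 1.34 (adjusted p = 7.54e-05). SESN3, a stress-induced inhibitor of mTORC1, was at 6.60, 8.01 and 7.23 CPM in KI and 16.8, 17.6 and 18.5 CPM in parental cells under BYL719 (-1.28, adjusted p = 1.04e-05), and its interaction of 0.61 was not called (adjusted p = 0.101). Every KI library was below every parental library in these genes. The pro-apoptotic BCL2L11 had 0.27 under BYL719 and was not called (adjusted p = 0.0961).

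The promoter windows below are those of 4 list members that rose and hold the forkhead motif GTAAACA, in capitals, within 250 bases upstream; they come from RefSeq on GRCh38.p14 and are read 5′ to 3′ on the strand of each gene, and in MXI1 the motif is on the other strand and reads TGTTTAC. They lie at chr1:145996662-145996738 (TXNIP, minus strand), chr7:107168795-107168871 (HBP1, plus strand), chr10:44978948-44979024 (DEPP1, minus strand) and chr10:110210045-110210121 (MXI1, plus strand).
TXNIP: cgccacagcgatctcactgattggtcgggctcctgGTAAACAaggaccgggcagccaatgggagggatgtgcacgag
HBP1: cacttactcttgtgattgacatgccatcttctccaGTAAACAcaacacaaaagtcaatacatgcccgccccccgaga
DEPP1: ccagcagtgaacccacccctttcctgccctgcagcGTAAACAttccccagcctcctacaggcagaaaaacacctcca
MXI1: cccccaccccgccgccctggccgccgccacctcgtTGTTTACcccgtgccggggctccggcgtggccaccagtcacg

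The motif, searched on both strands, was in 5 of the 41 RefSeq promoters found for 25 of the 28 list genes (1 each in these 4 and BCL2L11). Of all 35116 promoters 1046 held it (2.98%). Among the 16 genes named for the size of their interaction, 11 had promoters, and 1 of these 17 promoters held the motif (TCP11L2). No match was found for PIK3IP1, IRS2, PDK4, ERBB3 or BMF. Because the list was chosen as FOXO targets, its share is no test of FOXO in these cells. TXNIP, an inhibitor of glucose uptake and thioredoxin, was at 444, 449 and 441 CPM in KI and 370, 354 and 353 CPM in parental cells under BYL719 (0.31, adjusted p = 0.000107), and at 235, 228 and 230 CPM in KI and 262, 269 and 281 CPM in parental cells in DMSO. HBP1, a repressor of cell cycle genes, was at 92.6, 96.8 and 94.4 CPM in KI and 73.1, 75.4 and 76.0 CPM in parental cells under BYL719 (0.34, adjusted p = 0.0015). DEPP1, a FOXO-induced regulator of autophagy, was at 2.72, 3.29 and 2.86 CPM in KI and 1.30, 1.48 and 1.52 CPM in parental cells (1.04 ± 0.16, adjusted p = 0.000478). MXI1, an antagonist of MYC, was at 27.5, 29.7 and 28.3 CPM in KI and 23, 22.3 and 22.3 CPM in parental cells (0.34, adjusted p = 0.000518). All 4 were higher in every KI library under BYL719, and their interactions of 0.54 (TXNIP), 1.01 (HBP1), 1.54 (DEPP1) and 0.74 (MXI1) were called.

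Line differences that were larger under BYL719 than in DMSO included metabolic genes. Of the 606 interaction genes 154 had a larger difference under BYL719. PDK4 (chromosome 7, 95583499 to 95596491, minus strand), a FOXO target that restrains the entry of pyruvate into the citric acid cycle, was at 155, 196 and 202 CPM in KI and 55.2, 55.3 and 60.2 CPM in parental cells under BYL719. The means were 184 ± 25.8 and 56.9 ± 2.85 CPM (SD, n = 3 each), a log2 fold change of 1.70 ± 0.11 (adjusted p = 2.98e-07). In DMSO PDK4 was at 18.2, 14.8 and 16.3 CPM in KI and 16.4, 19.4 and 20.9 CPM in parental cells (-0.20, adjusted p = 0.211), with overlapping groups, and the interaction was 1.89 (adjusted p = 9e-05). SLC7A2, a transporter of arginine and lysine, was at 139, 134 and 138 CPM in KI and 24.0, 26.6 and 28.8 CPM in parental cells under BYL719 (2.37 ± 0.12, adjusted p = 1.97e-08). In DMSO SLC7A2 was at 26.1, 17.9 and 24.8 CPM in KI and 19.0, 19.9 and 18.8 CPM in parental cells, again overlapping, and the interaction was 2.12 (adjusted p = 3.95e-05).

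Signalling genes showed the same order. DKK1, a secreted WNT antagonist, was at 199, 212 and 221 CPM in KI and 85.4, 87.4 and 82.5 CPM in parental cells under BYL719 (1.31), and at 58.5, 73.9 and 62.1 CPM in KI and 71.3, 66.4 and 65.4 CPM in parental cells in DMSO; the interaction was 1.37 (adjusted p = 5.98e-05). GAB2, a docking protein that binds the PI3K regulatory subunit, was at 11.6, 11.8 and 13.1 CPM in KI and 6.06, 6.07 and 6.27 CPM in parental cells under BYL719 (0.99), with an interaction of 1.46 (adjusted p = 0.000218). IL7R was at 28.9, 28.8 and 29 CPM in KI and 2.73, 3.12 and 3.5 CPM in parental cells under BYL719. In DMSO IL7R was at 9.90, 8.12 and 10.4 CPM in KI and 2.67, 2.52 and 2.45 CPM in parental cells, so it was higher in every KI library in both media, with an interaction of 1.32 ± 0.14 (adjusted p = 0.000416). SYNE2, a nuclear envelope protein, had an interaction of 1.37 (adjusted p = 0.000681). The histone gene HIST2H4B had one of 2.01 (adjusted p = 0.00889), and its counts are uncertain because it has near-identical copies.

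The larger set of interaction genes had smaller line differences under BYL719. YPEL3, a growth-suppressing member of the yippee family, was at 26.1, 38.6 and 32.0 CPM in KI and 36.5, 35 and 37.5 CPM in parental cells under BYL719, with overlapping groups (-0.17). In DMSO YPEL3 was at 6.52, 7.93 and 6.27 CPM in KI and 25.3, 24.9 and 26.2 CPM in parental cells (-1.88), and the interaction was 1.71 ± 0.17 (adjusted p = 0.000246). KLHL24, a ubiquitin ligase adaptor, was at 63.4, 71.2 and 69.6 CPM in KI and 53.9, 53.9 and 57.4 CPM in parental cells under BYL719 (0.31, adjusted p = 0.0548). In DMSO KLHL24 was lower in KI, at 18.9, 13.0 and 16.7 against 31.0, 35 and 34.5 CPM, and the interaction was 1.35 (adjusted p = 0.00055).

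GLUL, glutamine synthetase, was at 821, 968 and 972 CPM in KI and 1088, 1057 and 1069 CPM in parental cells under BYL719 (-0.22, adjusted p = 0.0339). That call was lost without KI BYL719 replicate 1 (adjusted p = 0.068) or any parental BYL719 library (adjusted p 0.0715 to 0.087). It was also lost with effective-length offsets (adjusted p = 0.115). In DMSO GLUL was at 200.5, 177 and 187 CPM in KI and 581, 604 and 625 CPM in parental cells (-1.68), and the interaction was 1.46 (adjusted p = 2.21e-05). BMF, a pro-apoptotic BCL2 family member, was at 13.5, 18.4 and 19.7 CPM in KI and 22.4, 23.9 and 25.4 CPM in parental cells under BYL719 (-0.47, adjusted p = 0.0249), a call lost, at 0.0585 to 0.0925, when KI BYL719 replicate 1 or parental BYL719 replicate 2 or 3 was left out. The BMF call was also lost with effective-length offsets (adjusted p = 0.0859) and with the 6 BYL719 libraries alone (0.0634). The BMF difference in DMSO was -1.92 and its interaction 1.44 (adjusted p = 0.00236). GBP2, an interferon-induced GTPase, was lower in KI cells in DMSO (-0.88) and higher under BYL719 (0.54), with an interaction of 1.42. TCP11L2 (1.69), IKZF2 (1.41) and ABTB1 (1.40) were the other named genes of this kind; TCP11L2 was not called with effective-length offsets (adjusted p = 0.286).

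**Figure D5:**
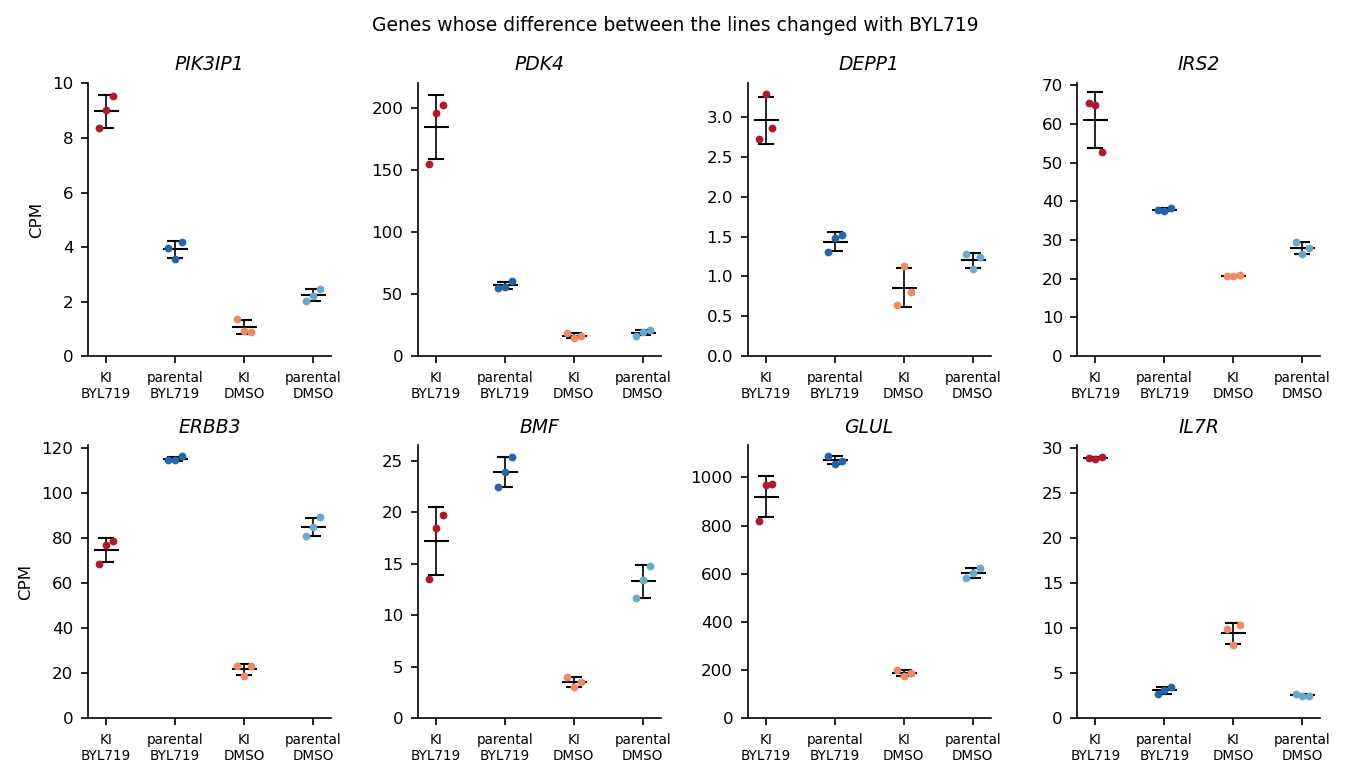
CPM on linear axes in each library of the 4 MCF10A groups for 8 genes called in the interaction test, 1 point per library with the mean and SD (n = 3). PIK3IP1, PDK4, DEPP1 and IRS2 are higher in KI than in parental cells under BYL719 and not in DMSO, ERBB3, BMF and GLUL are lower in KI cells in both media with a wider gap in DMSO, and IL7R is higher in KI cells in both.

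The line differences were also described along the genome. Median log2 differences by chromosome under BYL719, over genes with a mean of at least 5 CPM, ran only between -0.001 (chromosome 16) and 0.053 (chromosome 4). Among 10 Mb windows with at least 20 such genes, the window of chromosome X from 10000001 to 20000000 had 16 of 33 genes lower and 2 higher in KI cells, with a median of -0.19 under BYL719 and -0.34 in DMSO. On chromosome 1 from 140000001 to 150000000, 17 of 44 genes were higher and 2 lower in KI cells under BYL719. The median there was 0.14 under BYL719 and 0.032 in DMSO. These 2 windows were chosen after their values were seen.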

How the data were processed

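The authors trimmed reads with Trim Galore 0.6.1 and cutadapt and quantified transcripts with Salmon 1.2.1 on the build GRCh38, per the submitters' processing notes, which also name DESeq2 1.28.1. The deposited MCF10A tables list 207749 transcripts, per the file headers, with expected counts (estimated read pairs, not whole numbers), TPM, which the authors scaled to a fixed sum per library, and effective length in nucleotides, a per-transcript length that the authors' Salmon run adjusted for fragment size. The labels and notes do not state strandedness or RNA selection, so overlapping and antisense genes, and near-identical copies such as SAA1 and SAA2, histone genes, AKR1C genes and keratins with pseudogenes, are uncertain.

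The deposited expected counts were summed over the transcripts of each of 58434 gene identifiers and rounded to whole numbers. The 12 MCF10A libraries, 120177015 to 162755457 estimated pairs each, entered 1 fit of group means in R 4.3.3 with edgeR 4.0.16 (filterByExpr, TMM scaling, robust quasi-likelihood fit, 8 residual degrees of freedom). Tests were two-sided, with Benjamini-Hochberg adjustment over 21079 genes and a threshold of 0.05. Adjusted p-values in the text are from this fit unless another setting is named. The code was tested on simulated data. CPM use TMM library sizes, and errors are SD over n = 3 libraries for CPM and SE for log2 fold changes. Positions of genes come from GENCODE 29 on GRCh38, and promoter windows and motif shares from RefSeq promoters on GRCh38.p14, of which 250 bases upstream were searched on both strands with Python 3.11.15.

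The genes named are PIK3CA, the 12 most raised and 12 most lowered called protein-coding genes with a mean of at least 5 CPM and groups that do not overlap, up to 3 called members per direction of each list, and the 8 largest interaction genes of each kind. Further list members are named to show the breadth of a list and were chosen after their values were seen. The members and the 37 lists were chosen with earlier results of these data known. Alternatives were DESeq2 1.42.0, RLE and upper-quartile scaling, no filter on low counts, effective-length offsets made from the deposited TPM and effective lengths, a replicate block, fits of the 6 libraries alone, and leaving out each library. No pair of libraries within a group was a copy of another, with chi-square per degree of freedom of 4.59 to 167. The mouse libraries of the series were not used here, and some genes that this rule names are not reported here.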

Additional observations from a re-analysis of the deposited data

Results flagged for a closer look

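For 38 of the named genes the difference between the KI and parental lines was not the same under BYL719 and in DMSO, by the interaction term of the edgeR fit (adjusted p under 0.05 over all genes tested). Many of them were named because their interaction was called, so their number is no measure of the named genes. Over all 21079 genes 606 were called (2.87%). Each value below is the log2 line difference (KI minus parental) under BYL719 minus that in DMSO. Among FOXO targets and related PI3K genes it was 2.28 for PIK3IP1 (1.2 under BYL719 and -1.08 in DMSO), 1.89 for PDK4, 1.54 for DEPP1, 1.46 for GLUL, 1.46 for GAB2, 1.44 for BMF, 1.35 for KLHL24, 1.34 for ERBB3 (-0.62 under BYL719 and -1.97 in DMSO) 1.12 for IRS2, 1.01 for HBP1, 0.74 for MXI1 and 0.54 for TXNIP. PIK3CA had 0.56 (adjusted p = 0.0198) and the AKT-related kinase gene SGK1 had 0.42 (adjusted p = 0.0196). Neither was called with effective-length offsets (adjusted p = 0.0828 for PIK3CA and 0.114 for SGK1). PIK3CA was not called without KI BYL719 replicate 2 or 3, parental BYL719 replicate 1 or 2 or parental DMSO replicate 2 or 3 (0.0521 to 0.0692), and SGK1 was not called without any of these libraries, KI DMSO replicate 3 or parental BYL719 replicate 3 (0.0525 to 0.0845).

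A transporter and a receptor on the same scale were SLC7A2 at 2.12 (2.37 under BYL719 and 0.25 in DMSO) and IL7R at 1.32. YPEL3, TCP11L2, IKZF2 and ABTB1 were at 1.71, 1.69, 1.41 and 1.40, and their line differences in DMSO were -1.88, -1.65, -1.48 and -1.19. HIST2H4B was at 2.01, GBP2 at 1.42, SYNE2 at 1.37, DKK1 at 1.37 and GCLC at 0.37. GCLC was not called without parental BYL719 replicate 1 or parental DMSO replicate 2 (adjusted p = 0.0531 in each) or with effective-length offsets (0.0978).

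Matrix, adhesion and lineage genes were CCN1 at 0.94, ITGB8 at 0.90, SEMA3C at 0.72, TP63 at 0.67, TGFBR3 at 0.60, KLF4 at 0.43 and CD68 at 0.33 (adjusted p = 0.0459). With effective-length offsets TGFBR3 (adjusted p = 0.0562) and CD68 (0.127) were not called. TGFBR3 lost its call without any 1 parental BYL719 library, KI BYL719 replicate 2 or 3 or parental DMSO replicate 2 or 3 (0.0531 to 0.0622), and CD68 without any 1 library other than KI DMSO replicates 1 and 2 (0.0532 to 0.133). TP63 and ITGB8 were lower in KI cells in both media, at -0.82 under BYL719 and -1.48 in DMSO for TP63 and at -0.99 and -1.89 for ITGB8. Negative values were found for CDKN1C at -0.97 (0.73 under BYL719 and 1.71 in DMSO), RRS1 at -0.54, HMGCS1 at -0.44, NOP2 at -0.42, CDKN1A at -0.42 and NOP56 at -0.32. NOP56 was not called without any 1 library other than KI DMSO replicates 1 and 2, RRS1 without any 1 of 8 libraries and NOP2 without any 1 of 6, and none of the 3 with effective-length offsets (adjusted p 0.0743 to 0.133).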

How the results depend on the processing

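The 4709 genes called under BYL719 became 3562 to 7442 when single libraries were left out, the highest without KI DMSO replicate 2 and the lowest without parental BYL719 replicate 2, and 3564 to 6745 under the other settings, the highest with the 6 BYL719 libraries alone. The DMSO count of 7213 became 5759 to 8382 without single libraries and 5050 with the 6 DMSO libraries alone. The interaction count moved further: 606 in edgeR became 1429 with DESeq2 and 272 with effective-length offsets, and 239 to 1874 without single libraries; 9 of these 12 fits gave fewer than 606 calls and the 3 without KI BYL719 replicate 1 or KI DMSO replicate 1 or 2 gave more. The cause was not tested. The replicate block gave 4510, 7104 and 443 calls in BYL719, DMSO and the interaction. Deviations of same-numbered KI and parental BYL719 libraries correlated at -0.044, -0.107 and 0.017 across genes, so the numbers do not pair the 2 lines under BYL719. Between media they correlated at 0.122, 0.172 and 0.051 in KI cells and at 0.302, 0.207 and 0.389 in parental cells, each library correlating best with its own number among the 3 of its line in the other medium. The block gives a replicate number the same effect in both lines, so a pairing of the media within a line was not modelled. Of the named interaction genes the block ended the calls of CD68 (adjusted p = 0.0784) and NOP56 (0.0597).

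The 173 genes checked for BYL719 were those given by the naming rule, some of which do not appear in the text. Of these 173 genes, 24 changed side of the threshold under at least 1 setting, and of 38 interaction genes 11 did. No called value among them changed sign. List members named beyond the rule were not part of the check for BYL719. At 120177015 pairs or more per library, depth limits mainly genes under 0.1 CPM, such as CLDN3.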
